A study of Mus musculus with 9 samples.

Results

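The platelet-derived growth factor (PDGF) genes were followed in the overloaded right ventricle of the mouse. The members were the 4 ligand genes Pdgfa, Pdgfb, Pdgfc and Pdgfd, the 2 receptor kinase genes Pdgfra and Pdgfrb, and the receptor-like gene Pdgfrl. They were taken as every probe set whose gene symbol in the platform's annotation was exactly 1 of these names. All 7 genes were measured, by 15 of the 34945 probe sets that name a single gene, out of 18193 genes in all. The banding group was 5 samples of right ventricular myocardium from male C57BL6J mice, 6 to 8 weeks old, whose pulmonary artery had been narrowed with a band, so that the ventricle pumped against a raised pressure. The sham group was 4 samples of the same tissue from sham-operated males of the same strain and age. Total RNA of each was hybridised to 1 one-colour Affymetrix mouse array. The sources used here do not give the time since surgery or say whether animals were pooled. The replicates are numbered without a statement that each is a separate animal, so p-values measure the spread between these samples.

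PDGFs are dimeric growth factors that act on mesenchymal cells. PDGF-A and PDGF-B are processed inside the cell, whereas PDGF-C and PDGF-D are secreted in a latent form whose CUB domain is cut off outside the cell. Binding pairs the receptor kinases, which then phosphorylate each other and recruit adaptors and enzymes to their tails. In the heart, PDGFR-alpha is a marker of fibroblasts and PDGFR-beta of pericytes and vascular smooth muscle, and PDGF-B from endothelium is known for recruiting pericytes to vessels.

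Values are log2 expression as deposited, from a floor of 2.20 to 16.43, and a group mean under 4.20 was called dim. Array medians lay between 3.26 and 3.31 in banding and between 3.23 and 3.31 in sham. Liver transcripts differed between the groups. Of 14 liver genes, 14 were lower in banding by limma's adjusted p, with a median difference of -7.52 log2 units. Sham replicate 4 stood apart within sham. The summed linear value of the 14 genes was 153342 on that array, against 11576 to 29764 on the other sham arrays. The banding arrays lay between 106 and 923, with banding replicate 5 highest. Every sham array was thus above every banding array, and leaving out sham replicate 4 does not remove this difference. For Actb, the 3' control probe set exceeded the 5' one by 0.83 to 0.89 log2 units in banding and by 0.98 to 1.16 in sham. For Gapdh the same difference overlapped, at -0.16 to -0.13 in banding and -0.18 to 0.02 in sham. Ventricular cardiomyocyte markers were bright in both groups, with 0 of 10 higher and 5 of 10 lower in banding by limma's adjusted p (0 and 6 at an unadjusted p under 0.05). Of all genes above the dim level on average, 62.1% passed in either direction and 29.9% with a higher value. No member was dim in either group. Sham replicate 4 changed no member's call, and values without it are given where it was the extreme sham array.

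Banding was compared with sham to ask which PDGF genes differ in the pressure-overloaded ventricle. Of 7 members, 6 rose in banding and 0 fell, and 1, Pdgfa, missed the threshold. At an unadjusted p under 0.05 the counts were also 6 and 0. The test was limma's moderated test with Benjamini-Hochberg adjustment over all 18193 genes, and the threshold was an adjusted p of 0.05. Of all genes 38.4% passed, 18.4% with a higher and 20.0% with a lower value in banding. Among the 10748 genes above the dim level on average, 62.1% passed in either direction and 29.9% with a higher value. The members' median difference was 0.92 log2 units, beside -0.01 over those 10748 genes. The groups did not overlap in 5 of 7 members, all with banding above sham, against 36.7% of all genes, or 17.4% in that direction. Those shares include dim genes, whereas no member was dim, and they were not taken for genes above the dim level alone. In RNA of whole tissue, a change in the number of cells that express a gene cannot be told apart from a change of RNA per cell.

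**Figure D1:**
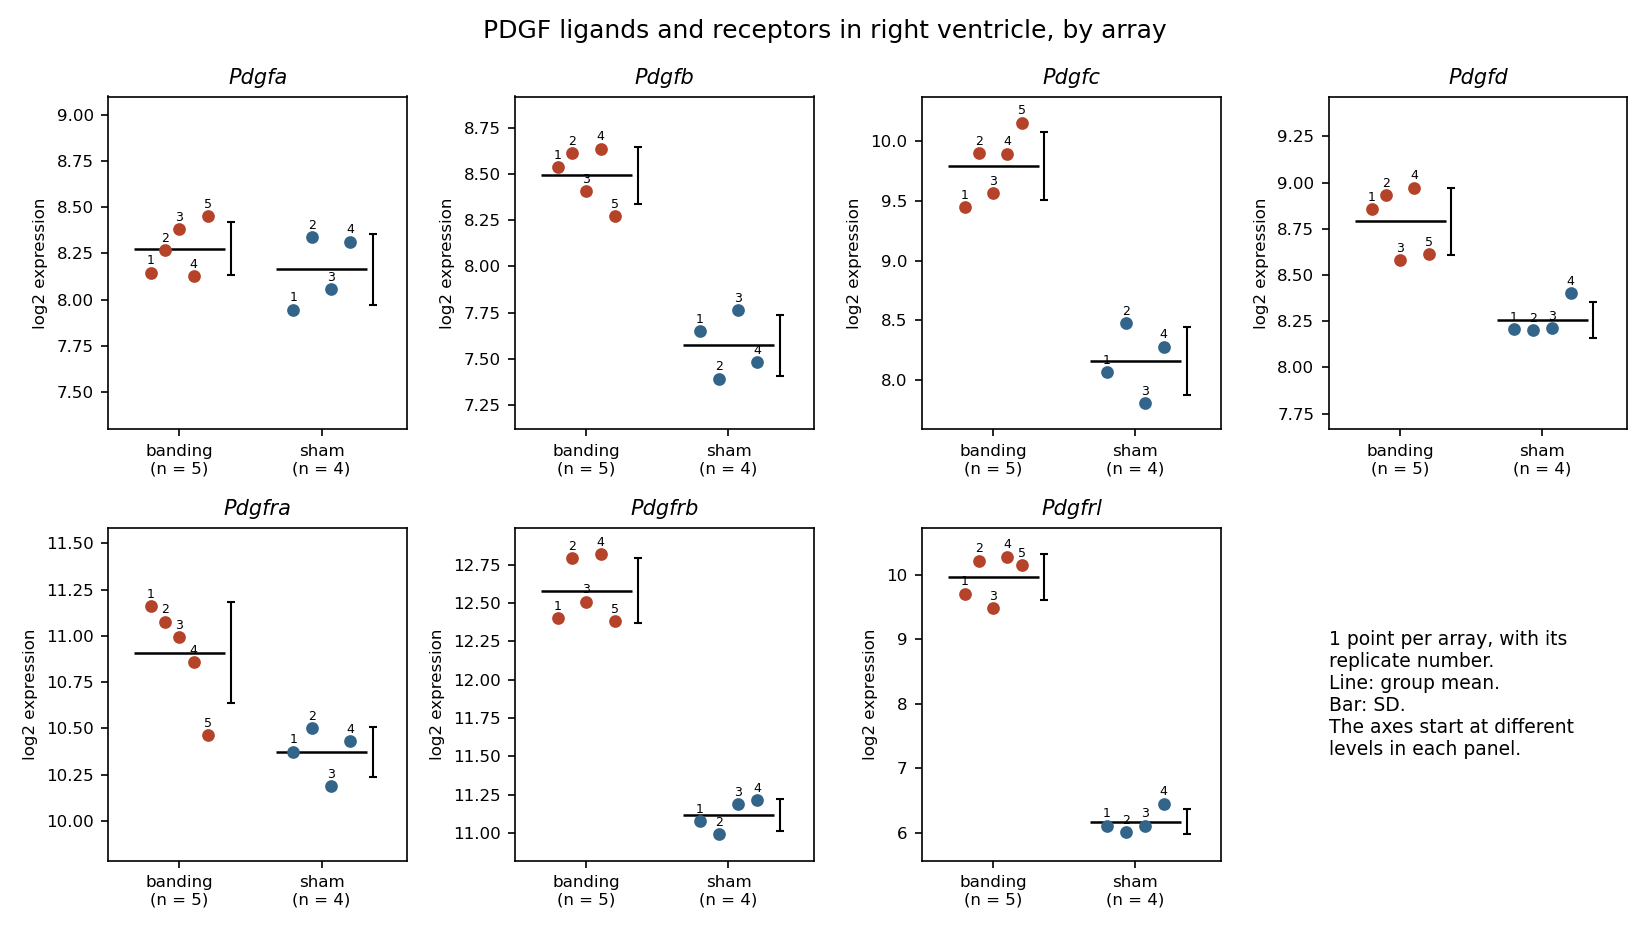
Log2 expression (vertical axes, with a separate range in each panel) of each PDGF gene on every array, in banding at left (n = 5) and sham at right (n = 4). Points carry the replicate number, lines are group means and bars are SD. The groups are apart in Pdgfb, Pdgfc, Pdgfd, Pdgfrb and Pdgfrl, and overlap in Pdgfa and Pdgfra.

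Among the ligands, Pdgfc showed the largest difference. Pdgfc encodes a latent ligand whose homodimer binds mainly PDGFR-alpha. It stood at 9.45, 9.90, 9.57, 9.90 and 10.16 log2 units on banding replicates 1 to 5, against 8.06, 8.47, 7.80 and 8.28 on sham replicates 1 to 4. The lowest banding array was almost 1 log2 unit above the highest sham array. Pdgfc rose 3.11-fold (log2 1.64 ± 0.19, SE, limma adjusted p = 0.000367). A dimmer probe set, 1449351_s_at, averaged 7.95 ± 0.34 (SD) over the 5 banding arrays and 6.97 ± 0.27 over the 4 sham arrays, and it rose 1.96-fold (limma adjusted p = 0.00818).

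Pdgfb encodes the ligand that binds both receptor kinases. It stood at 8.54, 8.61, 8.41, 8.64 and 8.27 on banding replicates 1 to 5, against 7.65, 7.39, 7.76 and 7.48 on sham replicates 1 to 4. The groups were apart, and the spread was alike in both. Pdgfb rose 1.89-fold (log2 0.92 ± 0.10, SE, limma adjusted p = 0.000352). Its second probe set, 1450413_at, averaged 6.48 ± 0.16 (SD) over the 5 banding arrays and 5.78 ± 0.51 over the 4 sham arrays, and did not pass (limma adjusted p = 0.0575). On that probe set sham replicate 3 reached 6.48, inside the banding range.

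Pdgfd encodes the second latent ligand, which acts mainly through PDGFR-beta. It stood at 8.86, 8.93, 8.58, 8.97 and 8.61 on banding replicates 1 to 5, against 8.21, 8.20, 8.21 and 8.40 on sham replicates 1 to 4. Sham replicate 4 was the highest sham array, and still lay below every banding array. Pdgfd rose 1.45-fold (log2 0.54 ± 0.10, SE, limma adjusted p = 0.00355). Averaged over its 3 probe sets the rise was 0.28 log2 units and still passed. Of those probe sets, 1446691_at lay at the floor on all 9 arrays, and 1426319_at had a difference of 0.30 ± 0.15 log2 units (SE) that did not pass (limma adjusted p = 0.201).

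Pdgfa encodes a ligand whose homodimer binds only PDGFR-alpha. Its brightest probe set stood at 8.15, 8.27, 8.38, 8.13 and 8.45 on banding replicates 1 to 5, against 7.95, 8.34, 8.06 and 8.31 on sham replicates 1 to 4. The groups overlapped through most of their range. The difference of 0.11 ± 0.11 log2 units (SE) did not pass (limma adjusted p = 0.495), and its 95% confidence interval ran from -0.14 to 0.36. The second probe set, 1418711_at, averaged 7.05 ± 0.20 (SD) over the 5 banding arrays and 6.60 ± 0.26 over the 4 sham arrays, and just missed the threshold (log2 0.45, limma adjusted p = 0.0545). Averaged over both probe sets, Pdgfa passed (log2 0.28, limma adjusted p = 0.0142), so the call for Pdgfa turned on how its probe sets were combined.

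The sequence before the start of transcription is printed for the members that rose and have an entry in the RefSeq promoter table (build GRCm38.p6), and for Pdgfa as the ligand that did not pass. The table held 5 windows for 4 members, and sequence is shown as far as a start of the table or of the gene. Of the Pdgfa windows, the one nearer the gene's first start is printed. Capitals mark the letters of 6 motifs sought on both strands over the whole window of 250 bases before and 50 after a start, with no match overlapping another. The motifs were the SP1 box GGGCGG, the AP-1 site TGACTCA, the TEAD site GGAATG, the E-box CACGTG, the CCAAT box CCAAT and the TATA box TATAAA. The Pdgfc stretch is chr3:81036166-81036415 on the plus strand, the Pdgfd stretch chr9:6168236-6168362 on the plus strand, the Pdgfra stretch chr5:75152001-75152250 on the plus strand and the Pdgfa stretch chr5:138994945-138995194 on the minus strand.
Pdgfc: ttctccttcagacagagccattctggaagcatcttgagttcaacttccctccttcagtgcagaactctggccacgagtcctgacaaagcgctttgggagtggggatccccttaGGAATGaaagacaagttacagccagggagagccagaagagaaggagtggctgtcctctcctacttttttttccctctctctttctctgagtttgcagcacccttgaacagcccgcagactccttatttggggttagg
Pdgfd: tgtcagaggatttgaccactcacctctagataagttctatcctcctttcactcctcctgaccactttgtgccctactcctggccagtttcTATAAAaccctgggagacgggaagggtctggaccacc
Pdgfra: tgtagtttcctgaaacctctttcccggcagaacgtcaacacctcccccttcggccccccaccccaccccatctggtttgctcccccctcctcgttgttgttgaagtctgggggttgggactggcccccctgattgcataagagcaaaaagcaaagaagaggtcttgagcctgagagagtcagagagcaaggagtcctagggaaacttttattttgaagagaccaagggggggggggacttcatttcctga
Pdgfa: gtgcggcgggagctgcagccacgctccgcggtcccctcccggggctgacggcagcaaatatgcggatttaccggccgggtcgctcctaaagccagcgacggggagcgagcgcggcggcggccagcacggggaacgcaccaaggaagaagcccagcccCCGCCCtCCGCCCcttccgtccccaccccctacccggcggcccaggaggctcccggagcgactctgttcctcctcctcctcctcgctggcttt

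The windows differed in the letters they held. Pdgfc had the TEAD letters 137 bases before the start, and again on the other strand 38 bases after it. Those letters occurred in 14.7% of all 32851 promoter windows. Pdgfd had the TATA letters 37 bases before the gene's first annotated start, and 13.6% of all windows held them. The Pdgfra window held none of the 6 motifs, and it lies inside the annotated gene, 929 bases after its first start. The Pdgfa stretch had 72.4% G and C, beside 50.8% for Pdgfc, 51.2% for Pdgfd and 54.4% for Pdgfra. It held the SP1 letters on the other strand 86 and 93 bases before its start, which lies inside the annotated gene, 5848 bases after the first one. The other Pdgfa stretch, at chr5:138994282-138994531, had 66.4% G and C and the SP1 letters on the same strand 60 bases before its start. The SP1 letters occurred in 35.7% of all windows. The AP-1 letters, in 5.20% of all windows, the E-box letters, in 7.15%, and the CCAAT letters, in 37.4%, were in none of the 5 windows. A match is a description of the letters only.

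Of the receptor genes, Pdgfrb had the larger difference of the 2 kinases at their brightest probe sets. It stood at 12.40, 12.79, 12.51, 12.82 and 12.38 on banding replicates 1 to 5, against 11.08, 10.99, 11.19 and 11.21 on sham replicates 1 to 4. Every banding array was more than 1 log2 unit above every sham array. Pdgfrb rose 2.76-fold (log2 1.46 ± 0.11, SE, limma adjusted p = 8.28e-05). Its second probe set, 1417148_at, averaged 8.71 ± 0.35 (SD) over the 5 banding arrays and 7.59 ± 0.11 over the 4 sham arrays, a rise of 2.17-fold (limma adjusted p = 0.00231). Without sham replicate 4, the highest sham array of the brightest probe set, Pdgfrb rose by 1.49 log2 units.

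Pdgfra rose less, and its call was the least stable of the 6. The brightest probe set stood at 11.16, 11.08, 10.99, 10.86 and 10.46 on banding replicates 1 to 5, against 10.37, 10.50, 10.19 and 10.43 on sham replicates 1 to 4. Banding replicate 5 lay inside the sham range, and the other 4 banding arrays lay above it. Pdgfra rose 1.45-fold (log2 0.54 ± 0.15, SE, limma adjusted p = 0.0219). The call was lost when banding replicate 2 was left out (limma adjusted p = 0.052), and likewise for banding replicate 3 (0.0506), sham replicate 1 (0.053) and sham replicate 3 (0.0624), with differences between 0.47 and 0.54 log2 units.

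The 3 Pdgfra probe sets gave different sizes. Probe set 1438946_at stood at 6.66, 6.99, 6.66, 7.41 and 6.69 on banding replicates 1 to 5, against 5.41, 5.59, 5.37 and 5.39 on sham replicates 1 to 4. Its groups were apart, and it rose 2.72-fold (log2 1.44 ± 0.17, SE, limma adjusted p = 0.000499 over all probe sets). The third, 1421916_at, averaged 6.46 ± 0.24 (SD) over the 5 banding arrays and 5.97 ± 0.19 over the 4 sham arrays, a rise of 1.40-fold (limma adjusted p = 0.036). Averaged over its 3 probe sets, Pdgfra rose by 0.82 log2 units (limma adjusted p = 0.000959).

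Pdgfrl had the largest difference of the members. It encodes a secreted protein that resembles the ligand-binding part of the PDGF receptors and has no kinase, and was described in human as a candidate tumour suppressor. It stood at 9.70, 10.22, 9.48, 10.28 and 10.15 on banding replicates 1 to 5, against 6.11, 6.01, 6.11 and 6.45 on sham replicates 1 to 4. The gap between the groups was wider than 3 log2 units, and the sham group was above the dim level. Pdgfrl rose 13.9-fold (log2 3.79 ± 0.19, SE, limma adjusted p = 2.03e-05). Of 18193 genes, 65 rose by more, and 35 of these were above the dim level in sham. Without sham replicate 4, its highest sham array, the rise was 3.89 log2 units. Pdgfrl had 1 probe set, so no second measurement bears on its size.

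**Figure D2:**
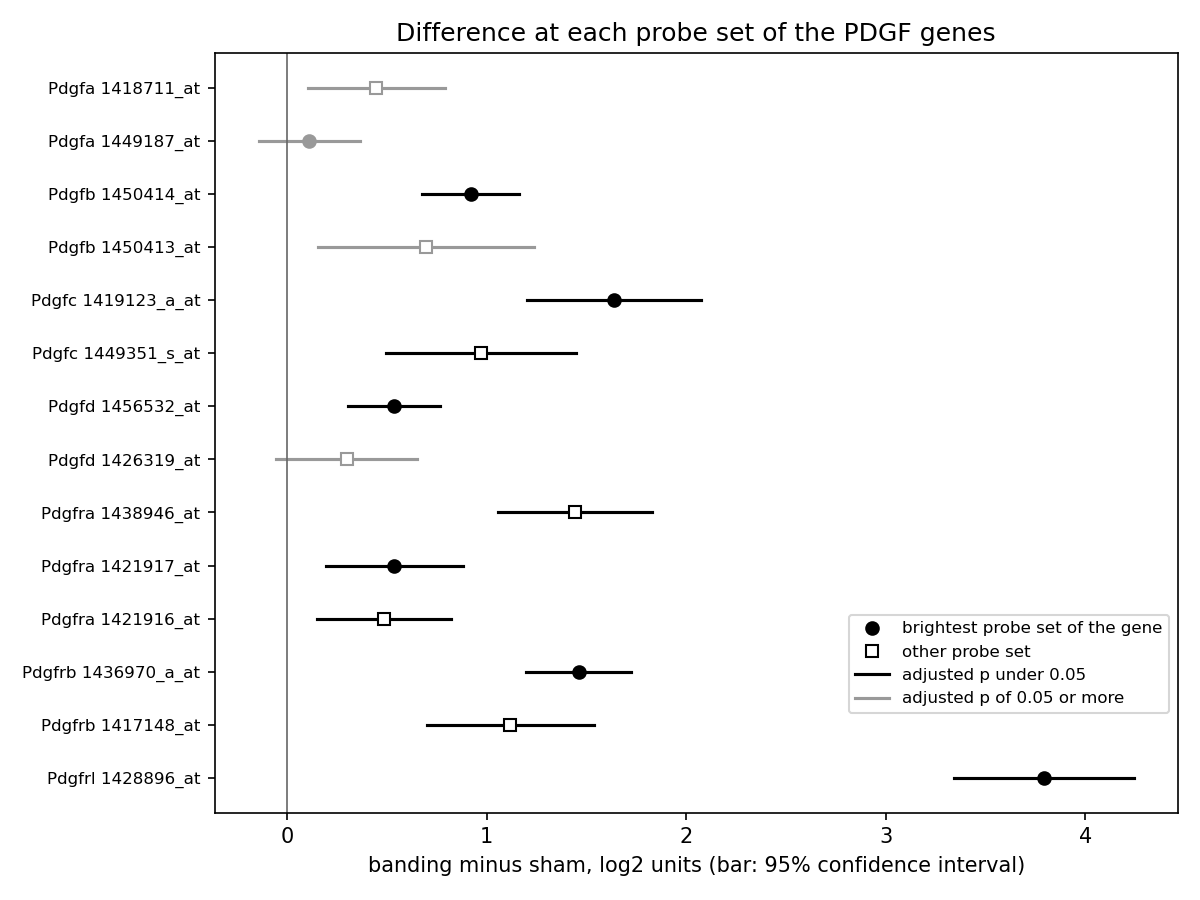
Banding minus sham in log2 units (horizontal axis) at 14 probe sets of the PDGF genes, with 95% confidence intervals from limma. The probe set at the floor on all arrays is left out. All 14 lie to the right of 0, the interval reaches below 0 at 1449187_at of Pdgfa and 1426319_at of Pdgfd, and the Pdgfra probe sets lie between 0.49 and 1.44.

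Tested singly over all 34945 probe sets, 10 of the 15 probe sets of the members rose in banding, 0 fell and 5 missed the threshold. At an unadjusted p under 0.05, 12 were higher and 0 lower. Of all probe sets 31.4% passed, and 15.3% passed with a higher value. The probe sets of 1 gene share its transcripts and are not replicates. Differences between probe sets of the same gene reached 0.96 log2 units in Pdgfra and 0.67 in Pdgfc, and were 0.34 or less in Pdgfa, Pdgfb, Pdgfrb and, with its probe set at the floor left aside, Pdgfd.

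Whether the members changed by unequal amounts was tested for all 21 pairs. On each array the log2 value of one gene was subtracted from that of the other, and the result was compared between the groups by a two-sided exact permutation test over every split into 5 and 4 arrays, adjusted by Benjamini-Hochberg over the pairs. The smallest p this design allows is 0.00794. Of the 21 pairs, 16 passed. Pdgfrl rose by more than each other member, by 2.15 log2 units beyond Pdgfc and by 3.68 beyond Pdgfa (exact permutation adjusted p = 0.0139 for each of its 6 pairs).

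At their brightest probe sets the receptor kinases differed from each other. The log2 value of Pdgfrb minus that of Pdgfra averaged 1.67 ± 0.30 (SD) over the 5 banding arrays and 0.75 ± 0.21 over the 4 sham arrays, so Pdgfrb rose by 0.93 log2 units more (exact permutation adjusted p = 0.0222). When each gene's probe sets were averaged, the gap was 0.47 log2 units and passed (adjusted p = 0.0152). The dimmer Pdgfra probe set 1438946_at rose by 1.44 log2 units, beside 1.46 and 1.12 at the Pdgfrb probe sets. Pairs of dimmer probe sets were not tested. Among the ligands, Pdgfc rose by 1.10 log2 units more than Pdgfd (adjusted p = 0.0139) and by 0.72 more than Pdgfb (adjusted p = 0.0313). With probe sets averaged, the gap to Pdgfb missed the threshold (0.50, adjusted p = 0.194).

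The changes of other pairs could not be told apart. Pdgfc and Pdgfrb differed by 0.18 log2 units in their change (exact permutation adjusted p = 0.442). Pdgfra and Pdgfd differed by 0.0015 (adjusted p = 0.984), although with probe sets averaged, which draws in the Pdgfd probe set at the floor, Pdgfra rose by 0.54 more (adjusted p = 0.0152). Pdgfra and Pdgfd each missed the threshold against Pdgfa, as did Pdgfb against Pdgfra (adjusted p = 0.0789 for each). A p that misses the threshold does not show equal change.

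**Figure D3:**
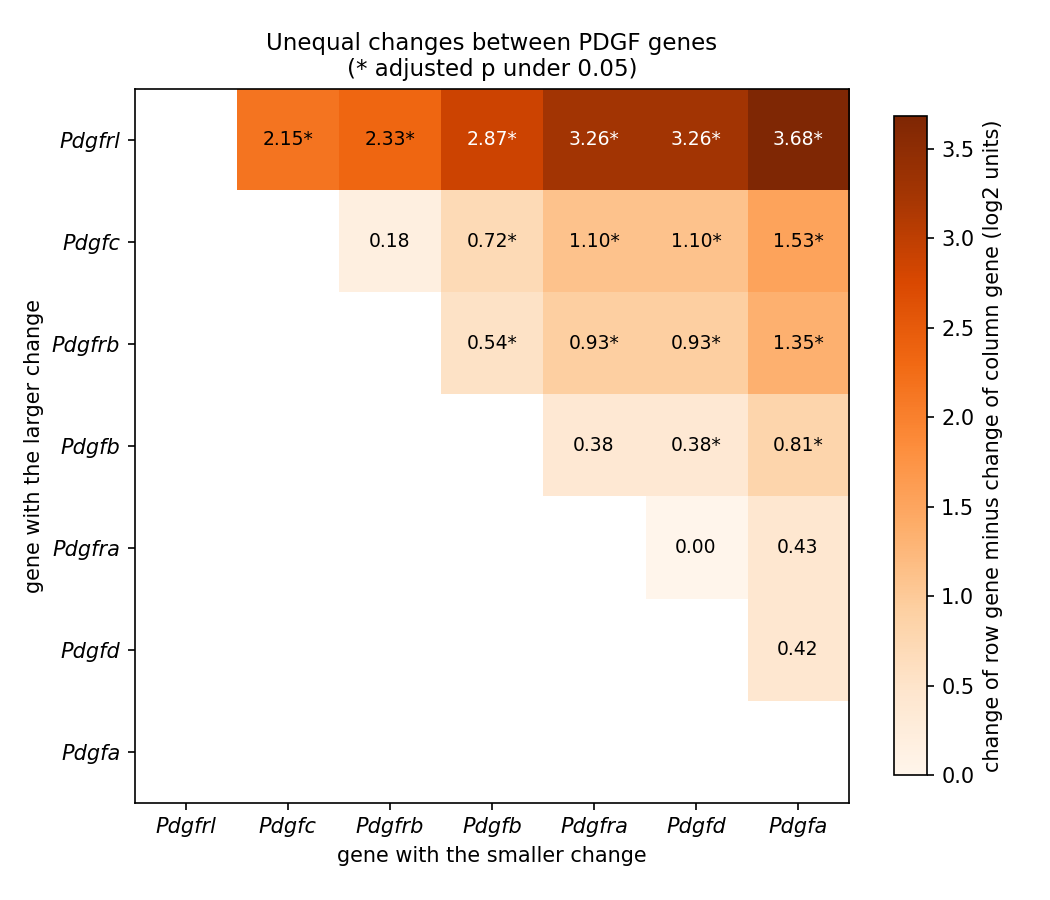
Change of the row gene minus change of the column gene, in log2 units of banding minus sham (colour and number), for the 21 pairs of PDGF genes. Both axes run by size of change, and asterisks mark an adjusted p under 0.05 in the exact permutation test. The row of Pdgfrl holds the 6 largest values, from 2.15 to 3.68.

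The genes around the ligands outside the cell were taken from a list of processing enzymes, binding proteins and co-receptors. Of 12 measured, 6 rose, 0 fell and 6 missed the threshold, and the median difference was 0.80 log2 units. At an unadjusted limma p under 0.05, 7 were higher and 0 lower. Of all genes 38.4% passed in either direction and 18.4% with a higher value. Among genes above the dim level the shares were 62.1% and 29.9%. In this list 50% passed, all with a higher value, and 3 genes were dim in both groups. Plat, the tissue plasminogen activator that can release PDGF-C from its latent form, averaged 9.49 ± 0.20 (SD) over the 5 banding arrays and 7.83 ± 0.15 over the 4 sham arrays, and rose 3.18-fold (limma adjusted p = 6.16e-05). For PDGF-D the known activators are Plau, the urokinase, which was at the floor in both groups, and St14, matriptase, which was dim in both. Plaur, the urokinase receptor, averaged 5.42 in banding and 4.23 in sham and did not pass (adjusted p = 0.0642). Plau, St14 and Plaur were chosen after their values were seen.

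Genes of PDGF-binding proteins and co-receptors were among those that rose. Thbs1, thrombospondin 1, averaged 9.80 ± 0.65 (SD) over the 5 banding arrays and 3.95 ± 0.91 over the 4 sham arrays, where it was dim, so it rose at least 48.6-fold against the dim level (limma adjusted p = 0.000122). Sparc, a matricellular protein that binds PDGF-B, rose 4.36-fold (adjusted p = 8.75e-06). Lrp1, an endocytic receptor that associates with PDGFR-beta, rose 2.07-fold (adjusted p = 0.000329), and the co-receptor Nrp1, chosen after its values were seen, 1.34-fold (adjusted p = 0.0086), a call lost with its probe sets averaged (adjusted p = 0.945).

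Downstream of the receptors, the list of adaptors, kinases and transcription factors was divided. Of 24 measured, 7 rose, 7 fell and 10 missed the threshold (9 higher and 8 lower at an unadjusted limma p under 0.05), and the median difference was 0.12 log2 units. The 58.3% that passed and the 29.2% that passed with a higher value were near the 62.1% and 29.9% of all genes above the dim level. Shc1, an adaptor of the receptor tail, rose 2.07-fold (limma adjusted p = 0.000269), Rasa1, the Ras GTPase activating protein, 1.73-fold (adjusted p = 0.000402) and Nras 1.53-fold (adjusted p = 0.000704). Akt1 fell by 0.31 log2 units (adjusted p = 0.000869). Among genes chosen after their values were seen, Pik3r1, the regulatory subunit of phosphoinositide 3-kinase, fell by 0.96 log2 units (adjusted p = 0.00145) and Stat5a by 1.16 (adjusted p = 0.0022).

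Genes that restrain receptor signalling were mostly higher. Of 14 measured, 8 rose, 1 fell and 5 missed the threshold, and the median difference was 0.85 log2 units. The share past the threshold was 64.3%, near the 62.1% of all genes above the dim level that passed in either direction, while 57.1% passed with a higher value, against 29.9% of those genes. Spred1, an inhibitor of the Ras pathway, averaged 9.04 ± 0.09 (SD) over the 5 banding arrays and 7.61 ± 0.10 over the 4 sham arrays, and rose 2.70-fold (limma adjusted p = 1.28e-05). Ptpn12, a phosphatase, rose 1.94-fold (adjusted p = 0.000271), Ptpn1, a phosphatase known to act on PDGF receptors, 1.84-fold (adjusted p = 1.76e-05), and Cbl, the ligase that marks activated receptors for degradation, 1.70-fold (adjusted p = 2.1e-05). The member that fell was Acp1, a low molecular weight phosphatase, by 0.29 log2 units (adjusted p = 0.0355), a call lost without any 1 of banding replicates 1, 2 and 3 and sham replicates 2, 3 and 4 (adjusted p up to 0.092) and with its probe sets averaged (0.629). Acp1 was chosen after its values were seen.

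**Figure D4:**
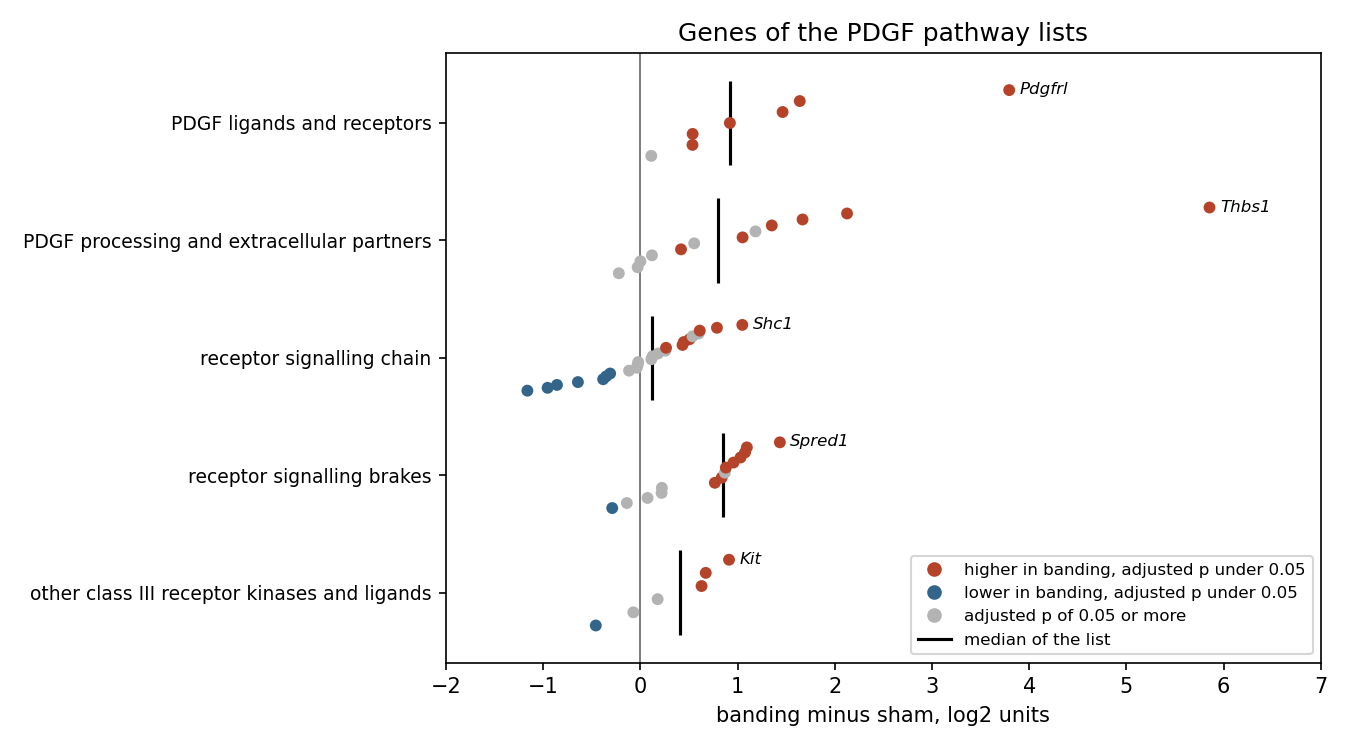
Banding minus sham in log2 units (horizontal axis) for each measured gene of the PDGF family and of the lists around it (rows), coloured by direction where the adjusted p is under 0.05, with a line at the median of the row. The median is 0.92 for the PDGF genes, 0.80 for the extracellular partners, 0.12 for the signalling chain and 0.85 for the brakes.

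Many markers of cells that make or respond to PDGF were higher in banding and some were lower, and their part in these results was not tested. Of all genes above the dim level, 29.9% passed with a higher value and 62.1% in either direction, beside which the counts of markers are to be read. Fibroblast markers were higher for 9 of 11 and lower for 1 of 11, with a summed linear value of 73212 to 94219 in banding and 48625 to 55772 in sham. Pericyte markers were higher for 7 of 10 and lower for 1 of 10 (7 and 2 at an unadjusted limma p under 0.05). Their summed value, which ran from 13830 to 22029 in banding and from 20126 to 21924 in sham, did not separate the groups. A linear sum is carried by its brightest genes, here Rgs5 and Abcc9, which moved in opposite directions. Rgs5 averaged 13.49 log2 units in banding and 12.88 in sham, and Abcc9 12.16 and 13.33. The sum thus does not show that the other pericyte markers were unchanged. Mcam, an adhesion molecule of vessel walls, rose by 1.88 log2 units (limma adjusted p = 0.000115) and Cspg4, a pericyte proteoglycan, by 1.58 (adjusted p = 0.00188), beside 1.46 for Pdgfrb. In the same list Abcc9, a potassium channel regulator, fell by 1.17 log2 units (adjusted p = 0.00497), and Vtn, vitronectin, had a difference of -1.56 and Kcnj8, a potassium channel subunit, of -0.32 that did not pass (adjusted p = 0.0957 and 0.354). Rgs5, Abcc9, Vtn and Kcnj8 were chosen after their values were seen. Vtn stood at 11.40 log2 units on sham replicate 4, the array highest in liver transcripts, against 8.83 to 9.22 on the other sham arrays. Smooth muscle markers were higher for 4 of 7 and lower for 0 of 7 (4 and 1 at an unadjusted limma p under 0.05), at a summed value of 10386 to 12338 in banding and 7223 to 8564 in sham.

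Markers of cells that can supply PDGF ligands were read on the same arrays, and their part was not tested either. Endothelial markers were higher for 7 of 10 and lower for 0 of 10 (8 and 0 at an unadjusted limma p under 0.05), with a summed linear value of 6358 to 8919 in banding and 5280 to 6302 in sham, and a median difference of 0.60 log2 units beside 0.92 for Pdgfb. Macrophage markers were higher for 10 of 11 and lower for 0 of 11, also at an unadjusted limma p under 0.05, at 23298 to 36599 in banding and 11260 to 13484 in sham. Of 8 platelet markers measured, 0 passed in either direction (limma, 0 higher and 1 lower at an unadjusted p under 0.05) and 6 were dim in both groups, among them Gp5 and Gp6 at the floor on all arrays, with a summed value of 1553 to 2074 in banding and 1826 to 2760 in sham.

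The genes whose profile lay nearest to each of the 6 members that passed were found by the root mean square difference between log2 profiles centred on their mean over the 9 arrays, among 10747 other genes above the dim level on average. For Pdgfrl these were Synpo (0.16 log2 units), Itgbl1 (0.18) and Mdk (0.19), which encode synaptopodin, an integrin-beta-like protein and midkine. For Pdgfrb they were Gucy1b1 (0.088), a subunit of soluble guanylate cyclase, Armcx1 (0.091) and Rbms3 (0.10), and for Pdgfra Cnp (0.10), Ptprg (0.11) and Crispld2 (0.11). Pdgfc lay nearest to Ptger4 (0.11), a prostaglandin E2 receptor, Cysltr1 (0.13) and Fignl1 (0.15). Pdgfb lay nearest to 2900026A02Rik (0.082), Arap3 (0.085) and Wwtr1 (0.090), which encodes the co-activator TAZ, and Pdgfd to Prkd3 (0.075), Copb1 (0.086) and Osbpl5 (0.086). This distance includes any gap in the change between groups, so near genes are ones of like change. Pdgfrl rose by 3.79 log2 units, beside 3.65 for Synpo, 3.79 for Itgbl1 and 4.03 for Mdk. No member was among the 3 nearest genes of these 6, which is no test of relatedness among the members. The nearest fellow member was Pdgfrb for Pdgfc (0.31) and Pdgfb for Pdgfrb (0.30), with 296 and 579 other genes nearer. Pdgfra and Pdgfd were each the nearest fellow of the other (0.19), with 124 genes nearer to Pdgfra and 608 nearer to Pdgfd. For Pdgfb it was Pdgfd (0.23, 603 genes nearer), and for Pdgfrl Pdgfc (1.10, 554 genes nearer).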

How the data were processed

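The authors deposited 1 log2 expression value for each probe set and array. RMA and GCRMA, methods that correct background and normalise arrays, are named per the submitters' processing notes, with no version or order, and the log2 scale was read from the values' range. No value was transformed again in the main analysis. Of 45101 probe sets, 64 controls, 9160 without a gene name and 932 with several names were left out. Each of the 18193 remaining genes was represented by the brightest of its probe sets, judged by the mean of all 9 arrays. The dim level was set 2 log2 units above the floor. Banding (5 arrays) was compared with sham (4 arrays) by a two-sided test in limma (version 3.58.1, R version 4.3.3; lmFit, then eBayes at its default settings, group as the only term), and p-values were adjusted by Benjamini-Hochberg over all genes. A second fit tested all probe sets singly. The fit was tested on simulated data. No batch is named in the labels, and the precision is limited by the number of arrays. Both groups carry replicate numbers 1 to 4, but the deviations of same-numbered arrays from their group means correlated at -0.034 to 0.036 across genes, so the numbers were not treated as pairs. The members, gene lists, marker lists and tests were chosen with earlier results of these data known. Named genes are all members, up to 4 genes of smallest p of each pathway list and up to 2 of each marker list past the threshold, the 3 nearest profiles of each member that passed, and genes said in the text to be chosen after their values were seen. Alternatives were other choices of probe set, a filter on dim genes, quantile normalisation, centring on array medians, eBayes with trend and robust fitting, values floored at the dim level, the replicate number as a block and arrays left out. Promoter sequences are from RefSeq. Figures were drawn with Python 3.11.15 and matplotlib 3.10.9.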

Additional observations from a re-analysis of the deposited data

Results flagged for a closer look

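Single arrays stood apart within a group in 9 of 52 sets of values checked by Dixon's gap ratio. This is the gap to the nearest array over the group's range. For independent values of normal spread chance gives about 1 in 20. The sets share arrays, and some hold equal values on several arrays, such as 1417148_at on sham replicates 2 and 3. The count therefore cannot be held against that rate. Among the members' probe sets these were Pdgfd 1456532_at in sham, where replicate 4 at 8.40 lay above 8.20 to 8.21 on the others (ratio 0.957), Pdgfd 1426319_at in banding, where replicate 4 at 7.23 lay above 6.66 to 6.74 (ratio 0.862), and Pdgfrb 1417148_at in sham, where replicate 1 at 7.42 lay below 7.63 to 7.64 (ratio 0.960). Without sham replicate 4 the rise of Pdgfd was 0.58 log2 units, beside 0.54 with all arrays. Summed marker values stood apart for pericytes in sham (ratio 0.949, replicate 4 high), endothelium in banding (0.803, replicate 5 low) and in sham (0.920, replicate 3 high), adipocytes in sham (0.914, replicate 2 high), and liver in banding (0.820, replicate 5 high) and in sham (0.872, replicate 4 high). The pericyte list holds Vtn, which stood at 11.40 log2 units on sham replicate 4 and at 8.83 to 9.22 on the other sham arrays.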

How the results depend on the processing

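Under 19 alternatives each, Pdgfb, Pdgfc, Pdgfd, Pdgfrb and Pdgfrl kept their direction and their side of the threshold, with differences of 0.81 to 0.98, 1.31 to 1.75, 0.28 to 0.63, 1.29 to 1.54 and 3.72 to 3.92 log2 units. Pdgfra stayed higher (0.47 to 0.82) and lost the threshold in the 4 fits without 1 array named above. Pdgfa stayed above 0 (0.04 to 0.28) and passed only with the mean of its probe sets. The number of members past the threshold was 5 to 6 with any 1 array left out and 7 with the mean of probe sets. Leaving out any 1 array gave 6270 to 6701 genes and 8 to 10 of the members' probe sets. The replicate block, in which banding replicate 5 drops out, left 5277 genes and 6 members past the threshold (Pdgfra 0.65, adjusted p = 0.0177), and changed no member's call. Of the pairs of members, 16 passed without sham replicate 4 and 15 with the mean of the probe sets, where Pdgfc against Pdgfb (adjusted p = 0.194) or Pdgfra (0.0521) and Pdgfb against Pdgfa (0.0686) no longer passed and Pdgfra against Pdgfa (0.0333) or Pdgfd (0.0152) did. Testing all probe sets singly was added after seeing the data, as were the fits of probe sets, lists and single list genes that leave out arrays other than sham replicate 4. With any 1 array left out, the number past the threshold was 6 for the extracellular partners, 13 to 14 for the signalling chain, 8 to 10 for the brakes and 3 to 4 for the other class III genes, and with probe sets averaged the counts were 5, 14, 8 and 3. Dim probe sets, such as those of St14, could hide a change.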

Other observations

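PDGF receptors belong to the class III receptor kinases, and of 6 other genes of that class and its ligands measured, 3 rose in banding, 1 fell and 2 missed the threshold. The 66.7% that passed were near the 62.1% of all genes above the dim level. Csf1r, the receptor of macrophage colony-stimulating factor, rose 1.55-fold (limma adjusted p = 0.000516), Kitl, the ligand of Kit, 1.59-fold (adjusted p = 0.00178) and Kit 1.88-fold (adjusted p = 0.0164), although Kit did not pass with its probe sets averaged (adjusted p = 0.0686). Csf1, the ligand of Csf1r, had a difference of -0.46 log2 units that passed narrowly (adjusted p = 0.0481), and the call was lost without any 1 of the 5 banding arrays, sham replicate 1 or sham replicate 4 (adjusted p up to 0.12). Flt3 and Il34 were dim in both groups, and Flt3l was not analysed here.

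Of the remaining marker lists, mesothelial markers were higher for 1 of 4 (Wt1, dim in sham, limma adjusted p = 0.00938) and lower for 0 of 4. At an unadjusted limma p under 0.05 the counts were 1 and 1. Upk3b, chosen after its values were seen, had a difference of -2.51 log2 units that did not pass (adjusted p = 0.0756). Msln and Krt19 had differences of -0.12 and -0.23 and did not pass. The Schwann cell marker Mbp was higher at its brightest probe set (adjusted p = 0.00327). With its probe sets averaged Mbp was lower, by -0.38 log2 units (limma adjusted p = 0.00149). Atrial markers passed for 0 of 3 and adipocyte markers for 0 of 2 in limma, and also at an unadjusted p under 0.05. The summed atrial value ran from 1973 to 27832 in banding and from 1379 to 8375 in sham.

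Within the banding group the members did not share 1 order of arrays. Replicate 5 held the lowest value of Pdgfb, Pdgfra and Pdgfrb and the highest of Pdgfa and Pdgfc, and replicate 4 held the highest of Pdgfb, Pdgfd, Pdgfrb and Pdgfrl. Replicate 5 also had the lowest summed pericyte (13830) and endothelial (6358) values of its group and the highest macrophage value (36599). Some probe sets gave the same value on several arrays, such as 6.66 for 1426319_at of Pdgfd on banding replicates 2, 3 and 5 and sham replicates 3 and 4.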
